A study of Mus musculus with 12 samples.

Results

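Expression of 5 genes that bind, sense or move zinc was measured in BV2 cells, an immortalised mouse microglial line: the metallothionein genes Mt1 and Mt2, the zinc-sensing transcription factor gene Mtf1, the zinc exporter gene Slc30a1 and the zinc importer gene Slc39a10. They were chosen by gene name as a small set of known function, with earlier results of these data known. They are 5 of the 21834 genes of the count table. All 4 groups came from stable BV2 lines made with lentivirus and selected with puromycin. The shCtrl line carried a control shRNA and the shAnxa2 line carried 1 shRNA against Anxa2 (annexin A2), both expressed from the pLKO.1 vector. Within each line, cells were left untreated (CTRL) or underwent oxygen-glucose deprivation and reoxygenation (OGD/R, written OGDR in group names). The labels give 4 h of deprivation in glucose-free medium followed by 12 h of reoxygenation in normal medium, and the study's methods give a longer reoxygenation for these cells. RNA-seq was performed on 3 libraries of each group, shCtrl-CTRL, shCtrl-OGDR, shAnxa2-CTRL and shAnxa2-OGDR. Each line was a single selected population, so any other difference between the lines cannot be told apart from the knockdown.

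Metallothioneins are short, cysteine-rich proteins that hold zinc and copper ions and buffer free zinc in the cell. When cytosolic zinc rises, MTF-1, the product of Mtf1, binds metal response elements in promoters, and Mt1, Mt2 and Slc30a1 are its best known targets. ZnT1, encoded by Slc30a1, carries zinc out across the plasma membrane, and ZIP10, encoded by Slc39a10, carries it in. In brain ischemia, zinc that is released or freed from proteins is known to enter neurons and glia.

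Before the 5 genes were compared, the libraries were examined as a whole. Totals ranged from 19521877 to 27288843 counts per library. Anxa2 counts were 3938, 4744 and 4806 in shCtrl-CTRL, 6414, 7717 and 5685 in shCtrl-OGDR, 715, 922 and 1052 in shAnxa2-CTRL, and 357, 505 and 425 in shAnxa2-OGDR. These counts follow the shRNA in the sample titles, whereas the cell type label names every OGDR library as knockdown and every CTRL library as wild type. Groups were therefore taken from the titles. The Anxa2 counts check the shRNA named in the titles and not the treatment, which was not tested. Treatment names exchanged within 1 line could not be told apart here from an opposite response to OGD/R. All 11 microglial markers on the list passed the filter on low counts, with a summed level of 1937 to 2063 CPM (counts scaled to a common library total) in shCtrl-CTRL, 1790 to 1937 in shCtrl-OGDR, 1644 to 1742 in shAnxa2-CTRL and 1815 to 1853 in shAnxa2-OGDR. The summed markers of neurons, astrocytes, oligodendrocytes, endothelium and fibroblasts reached at most 6.61 CPM in any library. The oligodendrocyte sum was 4.48 to 5.61 CPM in shCtrl-CTRL, 5.67 to 6.61 in shCtrl-OGDR, 5.53 to 6.16 in shAnxa2-CTRL and 4.08 to 4.41 in shAnxa2-OGDR, and its part in the results was not tested. The endothelial sum was 1.58 to 1.72 CPM in shCtrl-CTRL, 0.458 to 0.978 in shCtrl-OGDR, 0.587 to 1.23 in shAnxa2-CTRL and 1.67 to 2.09 in shAnxa2-OGDR. It came mostly from Cdh5 where it was highest (mean 1.63 CPM in shAnxa2-OGDR and 0.211 in shCtrl-OGDR), and its part was not tested either. Within the microglial list, Tmem119 had means of 4.83 ± 0.0246, 1.87 ± 0.475, 5.63 ± 0.377 and 10.3 ± 0.449 CPM (SD, n = 3) in shCtrl-CTRL, shCtrl-OGDR, shAnxa2-CTRL and shAnxa2-OGDR, so that its group means stood in the order of those of Mt1 below. Not all of the list shared that order. Csf1r had means of 584, 461, 398 and 496 CPM, and Trem2 of 186, 161, 154 and 199 CPM, in the same order of groups. Tmem119, Csf1r and Trem2 fell upon OGD/R in shCtrl cells and rose in shAnxa2 cells, each at an edgeR adjusted p under 0.05. Of the list, only Cx3cr1 moved the other way in both lines at that threshold. The part of these markers in the results was not tested. Cx3cr1 had means of 3.36, 4.71, 5.85 and 3.05 CPM in the same order of groups, lowest in shAnxa2-OGDR. Aif1 had means of 4.79, 5.75, 3.33 and 2.93 CPM, higher in both shCtrl groups. Over all genes tested, the root mean square log2 distance was 0.416 between shCtrl-CTRL and shAnxa2-OGDR libraries and 0.453 between shCtrl-OGDR and shAnxa2-CTRL libraries. It was 0.496 to 0.673 between other groups and 0.252 to 0.280 within groups. The labels name no sequencing batch, and a batch that followed the groups could not be told apart from them.

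Promoter sequence is shown first for the 3 genes that held a metal response element core, because this core is where MTF-1 binds. In each line below, the 250 bases before the RefSeq transcript start (build GRCm38.p6) run 5′ to 3′ along the strand of the gene, and capitals mark matches to TGCACNC or TGCGCNC on either strand.
Mt1, chr8:94178839-94179088, plus strand: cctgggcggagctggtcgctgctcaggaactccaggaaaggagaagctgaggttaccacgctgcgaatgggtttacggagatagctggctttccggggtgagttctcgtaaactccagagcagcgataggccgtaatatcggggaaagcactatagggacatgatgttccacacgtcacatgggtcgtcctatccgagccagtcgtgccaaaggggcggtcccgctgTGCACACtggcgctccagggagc
Mt2, chr8:94172368-94172617, plus strand: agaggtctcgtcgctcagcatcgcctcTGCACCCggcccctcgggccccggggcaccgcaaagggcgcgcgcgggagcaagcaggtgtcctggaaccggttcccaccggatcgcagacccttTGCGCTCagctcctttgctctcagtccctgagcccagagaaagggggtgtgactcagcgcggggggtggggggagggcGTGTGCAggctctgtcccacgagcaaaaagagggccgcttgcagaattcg
Slc30a1, chr1:191906531-191906780, plus strand: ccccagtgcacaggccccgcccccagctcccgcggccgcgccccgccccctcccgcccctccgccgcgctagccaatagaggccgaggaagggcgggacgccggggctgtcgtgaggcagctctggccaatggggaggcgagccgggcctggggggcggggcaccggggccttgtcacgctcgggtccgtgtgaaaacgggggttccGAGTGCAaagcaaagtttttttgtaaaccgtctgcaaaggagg

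All 5 genes matched a RefSeq promoter window by symbol, in 6 windows that reach from 250 bases before to 50 bases after the start. Mt1 held 3 cores, the first base of each at -23, 3 and 21 relative to the start, and Mt2 held 4, at -223, -128, -50 and 5. Slc30a1 held 2, at -43 and 31. The matches after the start lie beyond the printed bases. No match was found in the window of Mtf1 or in either window of Slc39a10, which says only that these letters are not in those windows. At least 1 core was present in 25.7% of all 32851 windows, at least 2 in 7.11%, at least 3 in 1.97% and at least 4 in 0.517%. The antioxidant response element core TGACNNNGC, bound by NRF2, occurred once each in Mt2 and Slc30a1 and in 12.4% of all windows. The hypoxia response element core ACGTG, bound by HIF, occurred once in Mt1 and in 19.6% of all windows. Both strands were searched for both motifs, and no match overlapped a metal response element core. GENCODE places the start of the first listed transcript of Mt1 at 7 bases upstream of the RefSeq start, that of Slc30a1 at 14 bases upstream and that of Mt2 at 46 bases downstream. That of Slc39a10 lies at -428, upstream, relative to the RefSeq start of its first window and at 71730, downstream, relative to that of its second. Neither of its windows spans that start. Further protein-coding transcripts start past the end of the window, at 122 and 152 bases downstream for Mt1, 242 for Mt2, 129 for Mtf1 and 475 for Slc30a1. Another of Mtf1 lies at -445, upstream. Further ones of Slc39a10 lie at -34452 and -39234 relative to its first RefSeq start. Relative to its second, they lie at 37706 and 32924, outside both windows. Not all bases before these starts were searched.

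**Figure D1:**
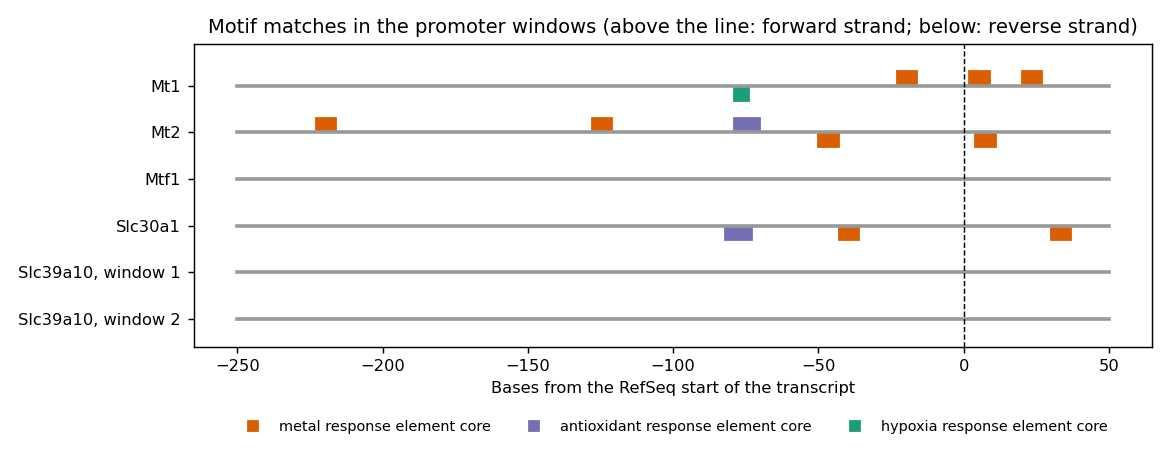
Positions of 3 motifs in the promoter windows of the 5 genes, with the distance from the RefSeq transcript start in bases on the x axis and 1 window per row. Blocks above a line are matches on the strand of the gene and blocks below it are matches on the other strand; Mt1 has 3 metal response element cores, Mt2 has 4, Slc30a1 has 2, and Mtf1 and Slc39a10 have none.

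Mt1 and Mt2 are neighbours on chromosome 8. In mm39, the build named in the submitters' processing notes, the deposited table places Mt2 (ENSMUSG00000031762) at chr8:94899292-94900196 and Mt1 (ENSMUSG00000031765) at chr8:94905710-94906955, both on the plus strand. The first listed GENCODE transcript of Mt1 has 549 bases and that of Mt2 has 511. Each has 61 codons before the stop, of which 20 encode cysteine, the residue that binds the metal. Of the coding bases, 79.2% were the same at the same position, and the longest run shared by the transcripts was 20 bases. Mt3 and Mt4, the other metallothionein genes on the list, had no count in any library.

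Mt1 was by far the more abundant of the pair. Per kilobase of annotated exon, its mean level over groups was 47.4 CPM per kilobase, and that of Mt2 was 8.80 to 13.6 times lower by group. The ratio of Mt1 to Mt2 was also taken with the lengths of the first listed transcripts in place of all annotated exons. It was then 23.1 in shCtrl-CTRL, 17.4 in shCtrl-OGDR, 21.2 in shAnxa2-CTRL and 26.8 in shAnxa2-OGDR. On the first scale, Slc39a10 had a mean of 18.9 CPM per kilobase and Slc30a1 one of 6.11.

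By the treatment named in the sample titles, 4 of the 5 genes moved in opposite directions upon OGD/R in the 2 lines. In shCtrl cells, OGD/R lowered 4 of the 5 genes, Mt1, Mtf1, Slc30a1 and Slc39a10, at an adjusted p under 0.05 in edgeR, against 31.0% of the 11626 genes tested that were called lower and 32.4% called higher. In shAnxa2 cells, the same 4 genes were called higher after OGD/R, where 28.2% of all genes tested were higher and 26.8% lower. Without treatment, 2 of the 5 genes, Slc30a1 and Slc39a10, were lower in shAnxa2 than in shCtrl cells, beside 29.7% lower and 29.5% higher among all genes. After OGD/R, Mt1, Mtf1, Slc30a1 and Slc39a10 were higher in shAnxa2 cells, beside 33.8% higher and 34.2% lower among all genes. For the interaction, which is the OGD/R change in shAnxa2 cells minus that in shCtrl cells, these 4 genes were called positive, beside 34.9% positive and 35.1% negative among all genes. Mt2 was called in none of the comparisons. The 4 comparisons between groups share libraries with one another, so a call in one of them is not independent of a call in the next. Calls of this kind were frequent over all genes, and the sizes of the changes are given beside each gene below. In bulk RNA, fewer cells that express a gene and less of its RNA per cell cannot be told apart. The edgeR p-values set each difference against the spread between libraries within groups, estimated in 1 model over all 12 libraries. The study describes the 3 libraries of a group as biological replicates of 1 cell line.

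**Figure D2:**
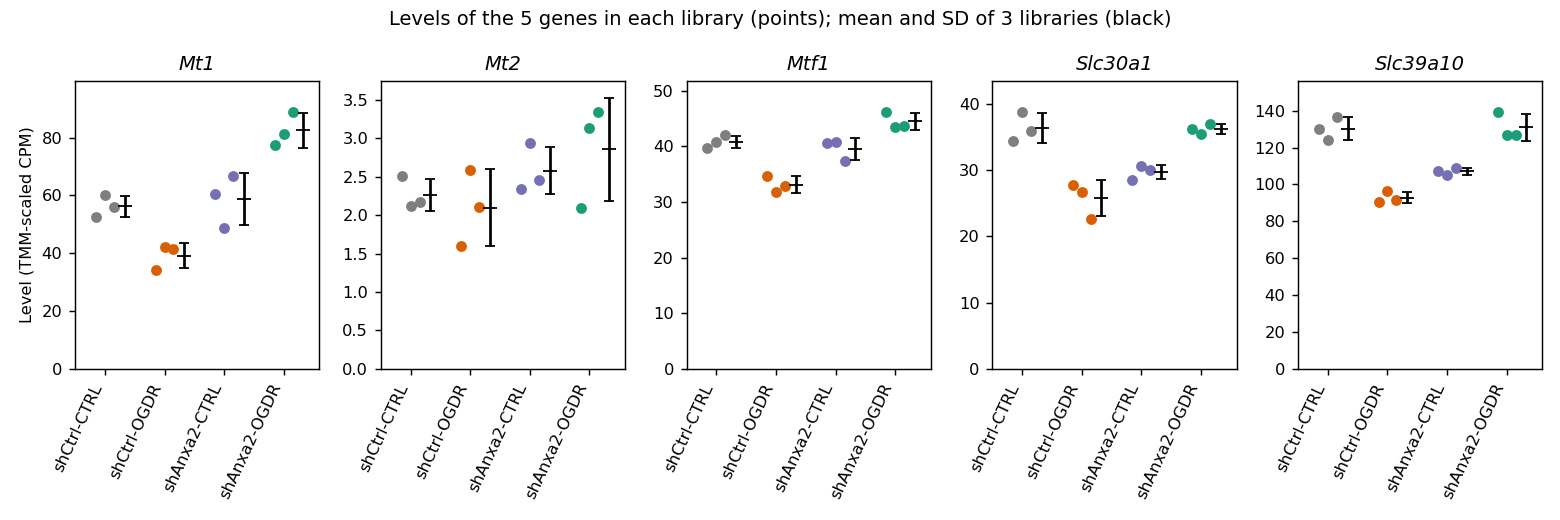
Levels of the 5 genes in TMM-scaled CPM (y axis, each panel from 0) in the 4 groups (x axis); points are libraries, and the black bar is the mean with its SD (n = 3). Mt1 runs from 34.1 to 42.0 CPM in shCtrl-OGDR and from 77.3 to 88.9 in shAnxa2-OGDR, whereas the 4 groups of Mt2 overlap.

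Mt1, the metallothionein gene with the more abundant RNA in these cells, varied most of the 5 genes over the 12 libraries. Its levels in the 3 libraries were 52.6, 60.0 and 55.8 CPM in shCtrl-CTRL, and 34.1, 42.0 and 41.3 in shCtrl-OGDR. In the shAnxa2 line they were 60.6, 48.8 and 66.7 CPM untreated and 77.3, 81.1 and 88.9 after OGD/R. The order was thus shCtrl-OGDR lowest, the untreated groups of both lines overlapping in the middle, and shAnxa2-OGDR highest, with no overlap at either step. The group means were 39.1 ± 4.37, 56.1 ± 3.69, 58.7 ± 9.10 and 82.4 ± 5.89 CPM (SD, n = 3) in that order, with shCtrl-CTRL before shAnxa2-CTRL.

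In shCtrl cells, Mt1 fell by 0.52 on the log2 scale upon OGD/R (SE 0.0902, edgeR adjusted p = 2.04e-05), and in shAnxa2 cells it rose by 0.49 (SE 0.0871, edgeR adjusted p = 4.74e-05). The untreated lines differed by 0.07 (SE 0.0879, edgeR adjusted p = 0.535, 95% interval -0.11 to 0.24). After OGD/R, the shAnxa2 line had 2.11-fold more Mt1 than the shCtrl line, a log2 difference of 1.08 (SE 0.0896, edgeR adjusted p = 1.54e-10). Of all genes tested, 8.64% had a larger absolute log2 difference in that comparison. The interaction was 1.01 (SE 0.125, edgeR adjusted p = 1.25e-07), and 22.0% of all genes had a larger one.

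Mt2, the second metallothionein gene, was measured with few reads. Its counts were 60, 58 and 59 in shCtrl-CTRL, 41, 68 and 41 in shCtrl-OGDR, 48, 61 and 62 in shAnxa2-CTRL, and 41, 79 and 69 in shAnxa2-OGDR. The lowest shAnxa2-OGDR library therefore lay within the range of shCtrl-OGDR, and every pair of groups compared overlapped. Mean levels were 2.27 ± 0.209, 2.10 ± 0.496, 2.58 ± 0.312 and 2.86 ± 0.672 CPM (SD, n = 3) in the order of these counts. The log2 difference upon OGD/R was -0.10 in shCtrl cells (SE 0.217, edgeR adjusted p = 0.692) and 0.16 in shAnxa2 cells (SE 0.211, edgeR adjusted p = 0.548). Between the lines it was 0.19 untreated (SE 0.213, edgeR adjusted p = 0.462) and 0.45 after OGD/R (SE 0.215, edgeR adjusted p = 0.0665, 95% interval 0.03 to 0.87). The interaction was 0.26 (SE 0.303, edgeR adjusted p = 0.450, 95% interval -0.33 to 0.86). Each of these values depends on single libraries. When 1 library at a time was left out, the difference ranged from 0.046 to 0.33 for OGD/R in shAnxa2 cells, from 0.092 to 0.26 between untreated lines and from 0.094 to 0.46 for the interaction, with no call in any of them. Without shCtrl-OGDR replicate 1, the OGD/R difference in shCtrl cells was 0.067. After OGD/R the lines differed by 0.65 without shCtrl-OGDR replicate 2 (edgeR adjusted p = 0.0227) and by 0.62 without shAnxa2-OGDR replicate 1 (edgeR adjusted p = 0.0156).

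Whether the metallothionein genes changed by the same factor was examined with their ratio within each library, where depth cancels. Mt2 made up 3.90 ± 0.579% of the counts of the pair in shCtrl-CTRL, 5.05 ± 0.691% in shCtrl-OGDR, 4.32 ± 1.18% in shAnxa2-CTRL and 3.33 ± 0.605% in shAnxa2-OGDR (SD, n = 3). The log2 ratio of Mt2 to Mt1 was lower by 0.64 in shAnxa2-OGDR than in shCtrl-OGDR, with no overlap between the libraries (exact two-sided permutation p = 0.1, the smallest that 3 against 3 libraries can give, and 0.4 after adjustment over 4 comparisons). The other 3 differences were 0.39 upon OGD/R in shCtrl cells, -0.38 upon OGD/R in shAnxa2 cells and 0.13 between untreated lines, with exact permutation p of 0.2, 0.4 and 0.7. Because this test cannot go below 0.1 here, it leaves undecided whether the pair changed unequally. Together, Mt1 and Mt2 took a share of 58.6, 41.4, 61.5 and 84.1 CPM of the library totals, without TMM, in shCtrl-CTRL, shCtrl-OGDR, shAnxa2-CTRL and shAnxa2-OGDR.

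Mtf1 (ENSMUSG00000028890, chr4:124695897-124743593 in mm39, plus strand), the gene of the zinc sensor, had the smallest changes of the 4 genes called. Levels were 39.8, 40.8 and 42.0 CPM in shCtrl-CTRL, 34.7, 31.8 and 32.9 in shCtrl-OGDR, 40.5, 40.8 and 37.3 in shAnxa2-CTRL, and 46.2, 43.5 and 43.7 in shAnxa2-OGDR. The order of the groups was that of Mt1, with shCtrl-OGDR lowest, the untreated groups overlapping and shAnxa2-OGDR highest. Upon OGD/R, Mtf1 fell by 0.30 on the log2 scale in shCtrl cells (SE 0.0619, edgeR adjusted p = 0.000162) and rose by 0.17 in shAnxa2 cells (SE 0.0618, edgeR adjusted p = 0.0231). The rise was called at 0.05 by a narrow margin. It was lost with upper-quartile scaling, without a filter, in a fit of only the 2 groups, and without shAnxa2-CTRL replicate 3 or shAnxa2-OGDR replicate 1, with an edgeR adjusted p between 0.0522 and 0.120 in these fits. The untreated lines differed by -0.05 (SE 0.0614, edgeR adjusted p = 0.516), and after OGD/R the shAnxa2 line was higher by 0.42 (SE 0.0624, edgeR adjusted p = 1.87e-06). Of all genes tested, 41.7% differed by more between the lines after OGD/R. The interaction was 0.47 (SE 0.0875, edgeR adjusted p = 3.97e-05).

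Slc30a1 (ENSMUSG00000037434, chr1:191638879-191645359, plus strand) encodes ZnT1, the exporter of the plasma membrane. Levels were 34.5, 38.8 and 35.9 CPM in shCtrl-CTRL and 27.8, 26.8 and 22.7 in shCtrl-OGDR. In the shAnxa2 line they were 28.5, 30.6 and 30.1 CPM untreated and 36.3, 35.6 and 37.0 after OGD/R. From low to high, shCtrl-OGDR, shAnxa2-CTRL and then the overlapping pair of shCtrl-CTRL and shAnxa2-OGDR did not share a value. Slc30a1 fell by 0.49 on the log2 scale upon OGD/R in shCtrl cells (SE 0.0733, edgeR adjusted p = 2.60e-06) and rose by 0.29 in shAnxa2 cells (SE 0.0738, edgeR adjusted p = 0.00209). Unlike Mt1 and Mtf1, it was called between the untreated lines, where the shAnxa2 line was lower (log2 difference -0.29, SE 0.0728, edgeR adjusted p = 0.00133). After OGD/R the shAnxa2 line was higher by 0.49 (SE 0.0742, edgeR adjusted p = 3.13e-06), and 35.9% of all genes tested differed by more. The interaction was 0.78 (SE 0.104, edgeR adjusted p = 3.87e-07).

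Slc39a10 (ENSMUSG00000025986, chr1:46846704-46932012, minus strand) encodes ZIP10, an importer of the plasma membrane known to rise when zinc is scarce. Its levels were 130.2, 124.1 and 136.4 CPM in shCtrl-CTRL, 90.7, 96.2 and 91.6 in shCtrl-OGDR, 107.2, 105.3 and 109.0 in shAnxa2-CTRL, and 139.4, 126.8 and 126.8 in shAnxa2-OGDR. The groups stood in the same order as for Slc30a1, with shCtrl-CTRL and shAnxa2-OGDR overlapping at the top. Upon OGD/R, Slc39a10 fell by 0.49 on the log2 scale in shCtrl cells (SE 0.0502, edgeR adjusted p = 8.21e-09) and rose by 0.29 in shAnxa2 cells (SE 0.0503, edgeR adjusted p = 3.33e-05). The shAnxa2 line was lower by a log2 difference of -0.28 when untreated (SE 0.04996, edgeR adjusted p = 3.55e-05) and higher by 0.50 after OGD/R (SE 0.0505, edgeR adjusted p = 5.17e-09). The interaction was 0.78 (SE 0.0710, edgeR adjusted p = 6.97e-10). The exporter and the importer thus had log2 changes of -0.49 and -0.49 in shCtrl cells and of 0.29 and 0.29 in shAnxa2 cells.

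**Figure D3:**
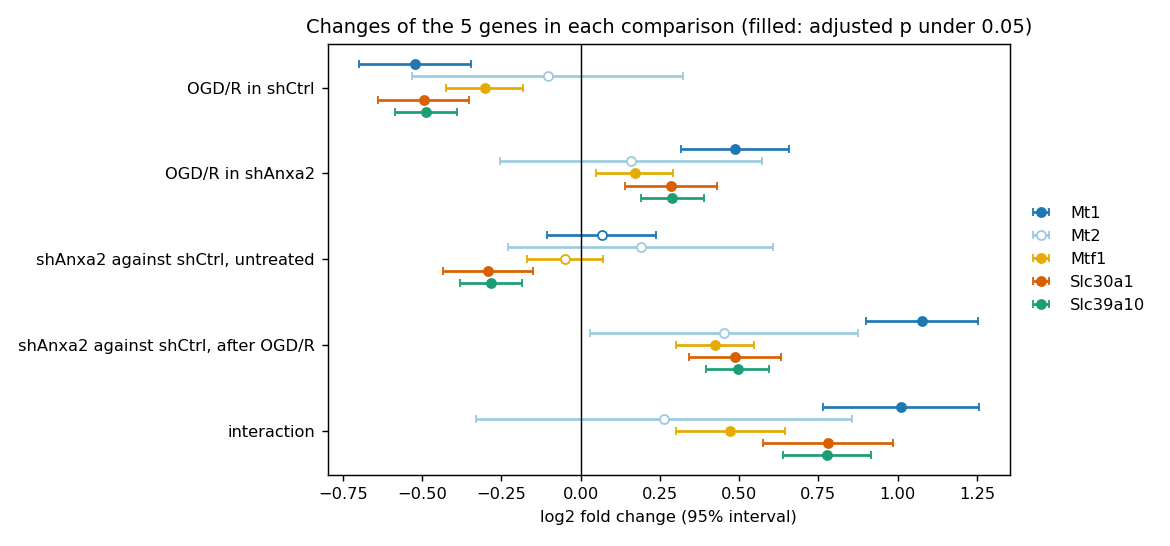
Log2 fold changes of the 5 genes (x axis) in the 4 comparisons between groups and the interaction (y axis); points are edgeR estimates, bars are 95% intervals of 1.96 SE, and filled points have an adjusted p under 0.05. All 5 genes are below 0 for OGD/R in shCtrl cells and above 0 for OGD/R in shAnxa2 cells, with the interval of Mt2 crossing 0 in both, and Mt1 is farthest from 0 after OGD/R at 1.08.

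The other genes of zinc and metal handling were taken from a list of 50, of which 36 passed the filter on low counts. Upon OGD/R in shCtrl cells, 14 of the 36 rose and 11 fell, beside 32.4% and 31.0% of all genes tested, with a median log2 change of 0.07 against 0.00452 over all genes. Upon OGD/R in shAnxa2 cells, 12 rose and 8 fell, beside 28.2% and 26.8% of all genes (median 0.02, against 0.00436). Between untreated lines, 12 were higher and 11 lower in shAnxa2 cells, beside 29.5% and 29.7% (median 0.11, against 0.00073). After OGD/R 11 were higher and 11 lower, beside 33.8% and 34.2% (median -0.04, against -0.00335). The interaction was positive for 12 and negative for 12, beside 34.9% and 35.1% (median -0.09, against -0.00612).

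Among the other ZnT genes, 6 of 9 were tested, and Slc30a3, Slc30a8 and Slc30a10 did not pass the filter. In shCtrl cells, 2 of the 6 rose and 3 fell upon OGD/R, beside 32.4% of all genes higher and 31.0% lower. In shAnxa2 cells 3 rose and 2 fell, beside 28.2% higher and 26.8% lower. Slc30a6, which encodes a transporter of the secretory pathway, had mean levels of 25.2 ± 2.02, 16.5 ± 0.493, 19.8 ± 3.52 and 29.1 ± 1.43 CPM in shCtrl-CTRL, shCtrl-OGDR, shAnxa2-CTRL and shAnxa2-OGDR (SD, n = 3). Its interaction was 1.16 (edgeR adjusted p = 5.63e-08), the direction of Slc30a1. Slc30a9, whose product is known to move zinc out of mitochondria, had means of 63.7, 92.3, 86.2 and 56.6 CPM in the same order of groups and an interaction of -1.14 (edgeR adjusted p = 2.85e-12), the opposite direction. Slc30a2, known for zinc loading of vesicles, was close to absent, with counts of 1, 0 and 0 in shCtrl-CTRL, 27, 18 and 12 in shCtrl-OGDR, 5, 5 and 2 in shAnxa2-CTRL, and 2, 0 and 8 in shAnxa2-OGDR. It was called higher upon OGD/R in shCtrl cells (edgeR adjusted p = 1.25e-05), but at such counts the size of the fitted fold depends on the prior count, and the counts are the better guide. Its call between the untreated lines (edgeR adjusted p = 0.0270) was lost without any 1 of 4 libraries, shCtrl-CTRL replicate 2 or 3 and shAnxa2-CTRL replicate 1 or 2, where the adjusted p lay between 0.0734 and 0.0828.

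Among the other ZIP genes, 11 of 13 were tested, and Slc39a8 and Slc39a12 did not pass the filter. Upon OGD/R, 3 rose and 5 fell in shCtrl cells, beside 32.4% of all genes higher and 31.0% lower. In shAnxa2 cells 4 rose and 1 fell, beside 28.2% higher and 26.8% lower. Slc39a6 encodes ZIP6, the closest relative of ZIP10 and its known partner in a joint transporter. Its means were 141.9 ± 13.9, 75.8 ± 6.64, 77.1 ± 2.97 and 133.1 ± 4.49 CPM in shCtrl-CTRL, shCtrl-OGDR, shAnxa2-CTRL and shAnxa2-OGDR (SD, n = 3). Its interaction was 1.69 (edgeR adjusted p = 5.01e-14), the direction of Slc39a10. Slc39a14, which encodes an importer of zinc, iron and manganese, had means of 60.0, 31.1, 48.9 and 75.7 CPM, a log2 difference of 1.28 between the lines after OGD/R (edgeR adjusted p = 2.23e-14) and an interaction of 1.58 (edgeR adjusted p = 1.70e-13). Slc39a4, which encodes the importer ZIP4 of intestinal zinc uptake, moved the other way. Its means were 21.2 ± 1.68, 60.0 ± 2.92, 63.5 ± 0.947 and 32.3 ± 1.69 CPM (SD, n = 3), with a log2 change of 1.50 upon OGD/R in shCtrl cells (edgeR adjusted p = 3.30e-15), -0.98 in shAnxa2 cells (edgeR adjusted p = 1.42e-11) and 1.59 between untreated lines (edgeR adjusted p = 1.45e-15). Its interaction was -2.48 (edgeR adjusted p = 6.06e-17).

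Of 9 other genes known as MTF-1 targets or metal-responsive, 8 were tested and Pgf did not pass the filter. In shCtrl cells 5 rose and 1 fell upon OGD/R, and in shAnxa2 cells 2 rose and 3 fell, beside 32.4% of all genes higher and 31.0% lower in shCtrl cells and 28.2% and 26.8% in shAnxa2 cells. Gclc, the catalytic subunit of the enzyme that limits glutathione synthesis, had means of 86.7, 54.5, 60.7 and 87.3 CPM in shCtrl-CTRL, shCtrl-OGDR, shAnxa2-CTRL and shAnxa2-OGDR and an interaction of 1.20 (edgeR adjusted p = 8.29e-13). Ndrg1, a gene known to be induced by hypoxia and by metals, had means of 10.8 ± 1.37, 72.2 ± 7.75, 48.8 ± 0.995 and 8.39 ± 1.34 CPM (SD, n = 3). Its log2 change upon OGD/R was 2.73 in shCtrl cells (edgeR adjusted p = 3.84e-17) and -2.53 in shAnxa2 cells (edgeR adjusted p = 6.43e-15), and the log2 difference of the shAnxa2 from the shCtrl line was 2.16 without treatment (edgeR adjusted p = 4.59e-15) and -3.10 after OGD/R (edgeR adjusted p = 9.05e-18). Of the 6 other zinc handling genes, Trpm7, which encodes a cation channel, and Mcoln1, which encodes a lysosomal one, were tested. Upon OGD/R 1 of them rose and 1 fell in shCtrl cells, and both rose in shAnxa2 cells.

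Copper genes, which also bear on the metals that metallothioneins hold, were tested for 9 of 11 members, with Atp7b and Sco2 below the filter. Upon OGD/R, 3 rose and 1 fell in shCtrl cells, beside 32.4% of all genes higher and 31.0% lower. In shAnxa2 cells 1 rose and 2 fell, beside 28.2% higher and 26.8% lower. Slc31a2, a relative of the copper importer gene, had means of 44.7, 105.6, 80.2 and 57.8 CPM in shCtrl-CTRL, shCtrl-OGDR, shAnxa2-CTRL and shAnxa2-OGDR and an interaction of -1.71 (edgeR adjusted p = 1.01e-14). Commd1, linked to copper export, had an interaction of -1.10 (edgeR adjusted p = 2.20e-09), and Sco1, which delivers copper to cytochrome c oxidase, one of 1.01 (edgeR adjusted p = 1.43e-09). Of the 50 list genes, 40 had a promoter window, of which 20 held at least 1 metal response element core and 3 held at least 3. Counted by gene in the same way, 28.2% of the 27025 genes with a window held at least 1 core and 2.27% held at least 3.

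**Figure D4:**
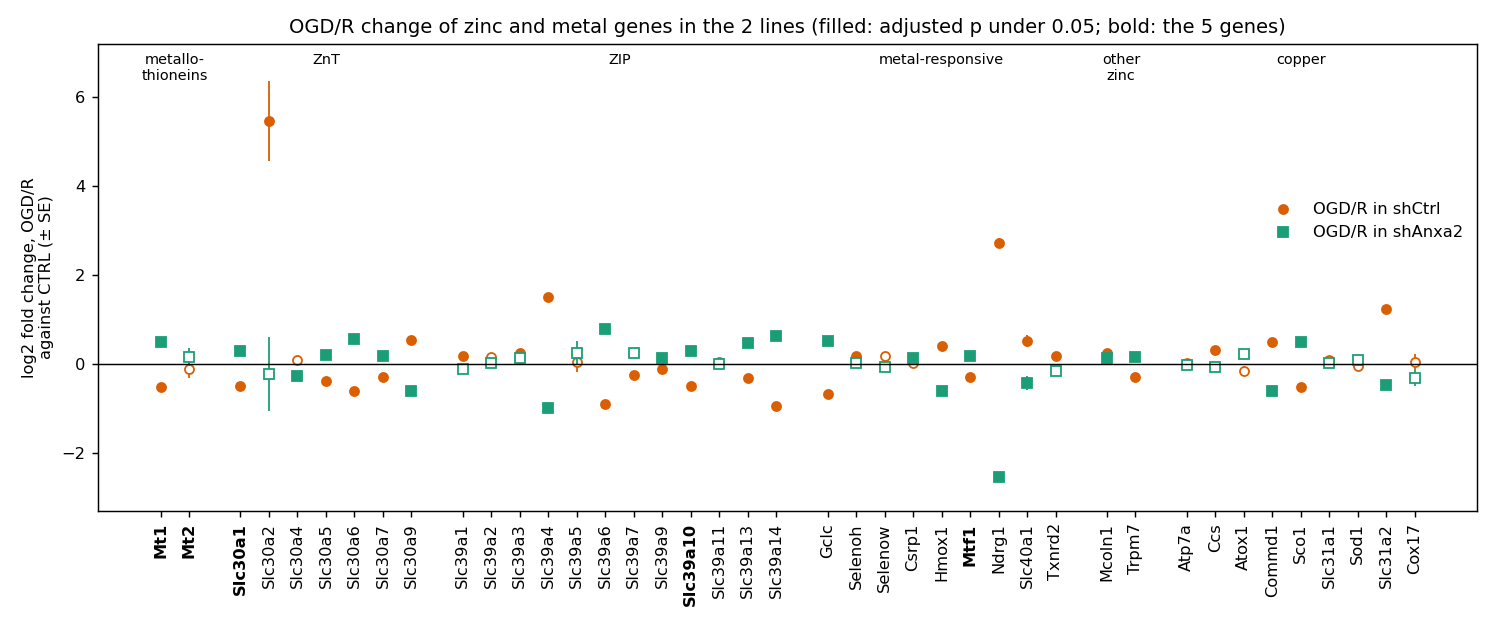
Log2 fold change upon OGD/R (y axis, with SE) of every zinc and metal gene tested, grouped on the x axis by family, with circles for shCtrl cells, squares for shAnxa2 cells and filled symbols for an adjusted p under 0.05. Mt1, Slc30a1, Slc39a10 and Mtf1 lie below 0 in shCtrl and above 0 in shAnxa2 cells, whereas Slc39a4 (1.50 and -0.98) and Ndrg1 (2.73 and -2.53) lie the other way, and the point of Slc30a2 in shCtrl cells rests on few counts.

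The genes whose pattern over the 12 libraries was nearest to each of the 5 were found among 9515 genes of at least 5 CPM, by the root mean square difference of centred log2(CPM + 0.1). For Mt1, which itself varied by 0.403 on this scale, they were Klf16 (0.103), Prmt5 (0.110), Fam174c (0.113), Nkain1 (0.114) and Nob1 (0.128). For Mtf1, which varied by 0.161, Topors was nearest (0.0438), then Sypl, Puf60, Dync1li2 and Ube2j2. For Slc30a1, which varied by 0.224, Trappc13 was nearest (0.0574), then Gm16286, Lsg1, Srpr and Atp2a2, and for Slc39a10, which varied by 0.213, Ddx24 (0.0352), then Emc7, Utp6, Gspt1 and Ncbp1. For Mt2, which varied by 0.270, the nearest were Zfhx2, Ubl5, 1810037I17Rik, Tmed1 and Cox16, at 0.155 to 0.171. Mt2, under 5 CPM, was not a candidate neighbour of any gene, and none of the other 4 genes was among the nearest of another of the 5.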

How the data were processed

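RNA of BV2 cells had been sequenced by the authors in 12 libraries, 3 in each of 4 groups, and groups and replicate numbers were taken from the sample titles. The authors deposited raw counts of reads per gene for 21834 genes. The submitters' processing notes name HISAT2 2.0.4 and mm39. The study's sequencing methods, written for hippocampi, name Tophat 2 and HTSeq, and the counting program for the BV2 libraries is not given in the sources used here. A further 12 per-sample columns, of normalized values, were not used. The 5 genes, the lists and the rule for named genes were chosen with earlier results of these data known.

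Genes with at least 0.5 CPM in at least 3 libraries (11626) were tested with edgeR 4.0.16 in R 4.3.3 (TMM, 1 quasi-likelihood model over 12 libraries, Benjamini-Hochberg adjustment over all genes tested, call at an adjusted p under 0.05). Levels are CPM on the TMM-scaled total, and intervals are 1.96 SE. The common coefficient of biological variation was 5.35%. The edgeR fit was run on simulated counts in which all genes shared the same dispersion and few genes changed, a simpler setting than these data. List genes were named with values where any comparison gave an adjusted p under 0.05 and a log2 change of at least 1, and the 5 pattern neighbours of each gene by the smallest difference. Alternatives were DESeq2 1.42.0, limma 3.58.1 (voom), other scalings and filters, a replicate block, fits of 2 groups and leaving out each library. Replicates differed by more than counting noise (chi-square per gene of 4.00 to 13.3). The replicate numbers did not pair the libraries. Exon lengths came from GENCODE M21, promoter windows from RefSeq, and plots from matplotlib 3.10.9.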

Additional observations from a re-analysis of the deposited data

Results flagged for a closer look

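For 4 of the 5 genes the OGD/R change differed between the lines, by the interaction term of the edgeR model. The interaction on the log2 scale was 1.01 for Mt1, 0.47 for Mtf1, 0.78 for Slc30a1 and 0.78 for Slc39a10, and all 4 fell in shCtrl cells and rose in shAnxa2 cells. That of Mtf1 includes the rise in shAnxa2 cells that some alternatives did not call. Among the other zinc and metal genes that met the naming rule, the interaction was positive for Slc30a6 (1.16), Slc39a6 (1.69), Slc39a14 (1.58), Gclc (1.20) and Sco1 (1.01). It was negative for Slc30a9 (-1.14), Slc39a4 (-2.48), Ndrg1 (-5.26), Slc31a2 (-1.71), Commd1 (-1.10) and Slc30a2 (-5.70), the last of which rests on few counts, depends on the prior count and ranged from -7.46 to -5.02 when 1 library at a time was left out. Of all genes tested, 70.0% were called for this term, so a call alone does not set these genes apart.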

How the results depend on the processing

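Of 195 results for the 5 genes under other tests, scalings, filters, a replicate block or fits of 2 groups, 192 kept their direction and their side of the threshold. The other 3 concern the rise of Mtf1 upon OGD/R in shAnxa2 cells, which was 0.12 with upper-quartile scaling (adjusted p = 0.0888), 0.14 without a filter (adjusted p = 0.114) and 0.16 in a fit of only the 2 groups (adjusted p = 0.0522). The cause was not tested. Leaving out 1 library at a time kept 294 of 300 results. The Mtf1 rise ranged from 0.13 to 0.19 and was lost without shAnxa2-CTRL replicate 3 (adjusted p = 0.120) or shAnxa2-OGDR replicate 1 (adjusted p = 0.0921). The Mt2 difference upon OGD/R in shCtrl cells ranged from -0.30 to 0.067, and that between the lines after OGD/R from 0.28 to 0.65, with a call in 2 of the fits. The Mt1 difference between untreated lines ranged from -0.039 to 0.18, with the negative value without shAnxa2-CTRL replicate 3. For Slc30a2 upon OGD/R in shAnxa2 cells (log2 difference -0.23, not called), the range was -1.89 to 0.44, and the sign turned without shAnxa2-CTRL replicate 1 (0.0080) and without shAnxa2-OGDR replicate 2 (0.44). With TGCACNC alone, the metal response element cores over the windows of the 5 genes numbered 5 in place of 9, and with log2(CPM + 1) 3 of the 5 neighbours of Mt2 were the same. With a replicate block, the difference of Mt1 between the lines after OGD/R was 1.07, and each result for the 5 genes kept its direction and side of the threshold. The 35 results compared in this way also held counts of genes called, which were compared by size and not gene by gene. Same-number libraries did not deviate together (18 pairs, correlation -0.05 to 0.13, 1 over 0.1), and 6 of 12 libraries correlated best with their own number. Depth limits Mt2 most, at 41 to 79 counts per library.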
